A study of Rattus norvegicus with 63 samples.

Results

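The miRNA described here is miR-21, 1 of the 350 rat miRNAs on the array, chosen by its name on the array, rno-miR-21 without the asterisk that marks the passenger strand. It was followed in the livers of 45 rats treated with 15 compounds and of 18 vehicle-treated rats in 6 control sets, with 1 array per rat and 3 rats per group. All animals were male Wistar Hanover rats, 8 to 10 weeks old at dosing and treated by gastric gavage. Each dose group held 5 rats, of which the study picked 3 by histopathology for the arrays.

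Liver carcinogens and non-carcinogens were compared in the study. The non-genotoxic carcinogens (NGC) were Phenobarbital sodium (PB, 14 days, no dose in the labels), Piperonylbutoxide (PBO, 1200 mg/kg/d, 3 days), Dehydroepiandrosterone (DHEA, 600 mg/kg/d, 14 days), Acetamide (AA, 3000 mg/kg/d, 14 days), Methapyrilene HCl (MPy, 60 mg/kg/d, 7 days), Methylcarbamate (Mcarb, 400 mg/kg/d, 14 days), Diethylstilbestrol (DES, 10 mg/kg/d, 3 days) and Ethionine (ETH, 200 mg/kg/d, 14 days). The genotoxic carcinogens (GC) were C.I Direct Black (CIDB, 146 mg/kg/d) and Dimethylnitrosamine (DMN, 4 mg/kg/d), both given for 7 days. The non-carcinogens (NC) were Cefuroxime (CFX, 250 mg/kg/d) and Nifedipine (Nif, 3 mg/kg/d), both given for 14 days. Cyproterone acetate (CPA, 100 mg/kg/d, 14 days), Thioacetamid (TAA, 19.2 mg/kg/d, 7 days) and Wy-14643 (Wy, 60 mg/kg/d, 3 days) had no defined class. Control rats received Methylcellulose (MC sets 1, 2, 5 and 6, labelled 14 days) or Corn Oil (CO set 3, 7 days, and CO set 4, 14 days). The labels assign AA, DHEA, Mcarb, MPy, TAA and Wy to MC set 1, CFX and Nif to MC set 2, DES, ETH and PBO to MC set 5, PB to MC set 6, CIDB and DMN to CO set 3 and CPA to CO set 4. By these labels DES, PBO, Wy, MPy and TAA had controls of a longer treatment time, whereas the study's methods describe the controls as matched in time, and the sources used here do not settle this.

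A miRNA is a short RNA that guides Argonaute proteins to messenger RNAs, mostly through pairing of its seed, and so lowers their translation and stability. miR-21 is transcribed at the locus of the membrane protein gene Vmp1, its transcription is driven by AP-1 and STAT3, and the growth inhibitor PDCD4 is a known target. In liver it is known to rise after partial hepatectomy, in injury and fibrosis and in hepatocellular carcinoma, which is why it is counted among the injury and growth miRNAs.

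The sequences that define the measurement are those of the 2 strands of the miR-21 hairpin, since the array measures each strand with its own probes, and of miR-34a, which changed in the same direction as miR-21 in 2 compounds. They come from RefSeq on the rat build GRCr8, written 5′ to 3′, and the array names miR-21 and miR-21* correspond to the names ending in 5p and 3p. Capitals mark the seed, bases 2 to 8.
rno-miR-21-5p: uAGCUUAUcagacugauguuga
rno-miR-21-3p: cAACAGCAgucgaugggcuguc
rno-miR-34a-5p: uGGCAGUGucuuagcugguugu
The hairpin is shown with both strands in capitals, as the guide strand (miR-21) lies in its 5′ arm and the passenger strand (miR-21*) in its 3′ arm.
Mir21 hairpin: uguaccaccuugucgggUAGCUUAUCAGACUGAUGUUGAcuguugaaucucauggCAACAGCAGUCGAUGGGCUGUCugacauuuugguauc
The hairpin lies at chr10:71902600-71902691 on the minus strand. No other RefSeq gene of the table overlaps it, and it ends 531 bases before the annotated start coordinate of Vmp1 (chr10:71903223-72002337). Of 693 rat mature miRNAs in the table, rno-miR-21-5p alone has the seed AGCUUAU, so no further miRNA with that seed could be looked up on the array. The strands do not share a seed with each other or with miR-34a.

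The array carried 2 probes for miR-21 with 20 spots in all. The scanner software detected miR-21 on all 63 arrays and marked all of its 1260 spot readings as well above background. The mean brightness of its spots before normalization ran from 2574 units in a DHEA rat to 26957 units in a CIDB rat. Levels are given on the log2 scale of brightness after quantile normalization between arrays. For each compound the mean of its control set was subtracted from the mean of its 3 rats to give the log2 fold change. Arrays were spread over 9 slides and 3 scan days. The scanner software gave the arrays of slides 1 to 3 the status ExtractionEvaluate and the others ExtractionInRange. Among the former are all arrays of DES, DMN and CO set 3 and those of CIDB rats 1 and 3, but none of MC set 5. The bearing of this status on miR-21 was not tested. The 3 columns of DES in the authors' value table follow the scanner files of DHEA and those of DHEA the files of DES, and the columns of MC sets 1, 2 and 5 follow each other's files, so the labels of these 15 arrays are in doubt. Unless stated otherwise, each scanner file is used under the label it was deposited with.

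miR-21 was higher than in the controls in both genotoxic carcinogens and lower in DHEA and DES. CIDB raised it 1.62-fold (95% interval 1.44 to 1.82) and DMN 1.23-fold (1.09 to 1.39). It was 1.20-fold lower in DHEA and 1.17-fold lower in DES. Both of these calls were lost with slide as a block, and that of DES also with scan day as a block. By probe 1 alone neither was called lower. The other 11 compounds passed the test in neither direction, with log2 fold changes from -0.01 to 0.14. miR-21 was thus called in 4 of 15 compounds, where the median of the 162 miRNAs tested was 2 compounds and 20.4% of them were called in at least 4. The comparisons that share a control set are not independent. Among the 4 compounds whose own arrays and controls are not in doubt (PB, CIDB, DMN and CPA), it was called higher in 2 and lower in 0.

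**Figure D1:**
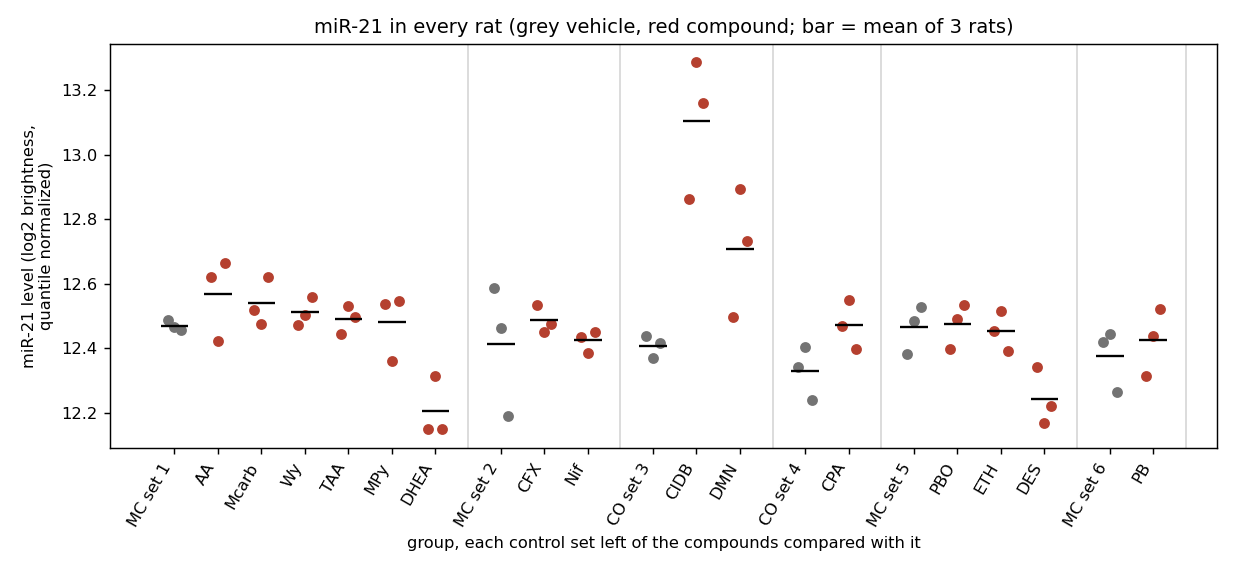
miR-21 level (log2 brightness after quantile normalization, vertical axis) of each rat, with every control set left of the compounds compared with it. Points are rats and bars are means of 3. The CIDB rats, at 12.86 to 13.29, lie above all 18 vehicle-treated rats, at 12.19 to 12.59.

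The vehicle-treated rats show how far miR-21 moves without a compound. MC set 1 had 12.49, 12.46 and 12.46. MC set 2, the widest set, had 12.59, 12.46 and 12.19. MC set 5 had 12.38, 12.49 and 12.53. The 3 sets overlap, and 1 rat of MC set 2 was the lowest of all control rats. MC set 6 had 12.42, 12.45 and 12.26. CO set 3 had 12.44, 12.37 and 12.42, and CO set 4 had 12.34, 12.40 and 12.24. The 12 MC rats averaged 12.43 ± 0.11 (SD) and the 6 CO rats 12.37 ± 0.07. None of the 7 comparisons between control sets of a vehicle passed the test, with differences of -0.05 to 0.09 and adjusted p values over the 7 comparisons of 0.763 to 0.96 in limma.

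The 3 CIDB rats had miR-21 levels of 12.86, 13.29 and 13.16, and the 3 rats of CO set 3 had 12.44, 12.37 and 12.42. All CIDB rats lay above all 18 control rats of the study, and the groups did not overlap. The unnormalized brightness was 13997, 26957 and 23647 units in the CIDB rats against 5644, 5956 and 4497 units in CO set 3. CIDB, an azo dye that is metabolized to the aromatic amine benzidine, gave a mean level of 13.10 ± 0.22 (SD, n = 3) against 12.41 ± 0.04. miR-21 thus rose by 0.70 on the log2 scale (SE 0.08, adjusted p = 1.11e-08 in limma) and was the second largest in size among the 162 miRNAs. Of all tested miRNAs 13% were called higher in CIDB, and 17.9% had all treated rats above all controls. The CIDB rats with 12.86 and 13.16 were scanned on the same day as CO set 3 and exceeded it by 0.60, while the rat with 13.29 was scanned on another day.

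The 3 DMN rats had 12.50, 12.89 and 12.73. All 3 lay above the 3 rats of CO set 3, but the lowest DMN rat lay below the highest control rat of the MC sets, at 12.59. DMN, a nitrosamine that alkylates DNA after activation in hepatocytes, gave a mean of 12.71 ± 0.20 (SD, n = 3). This was 0.30 above CO set 3 on the log2 scale (SE 0.08, adjusted p = 0.00697 in limma), the eleventh in size among the tested miRNAs. In DMN 13.6% of the miRNAs were called higher, and 14.2% had all treated rats above all controls. All 6 arrays were scanned on the same day. Without the rat at 12.89 the log2 fold change was 0.21 and was not called (adjusted p = 0.123 in limma).

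Both genotoxic carcinogens were given for 7 days in corn oil and share CO set 3, so they were set against each other directly. The level in CIDB exceeded that in DMN by 0.40 (95% interval 0.23 to 0.57, adjusted p = 0.000195 over 7 compound pairs in limma). The ranges overlapped, since the lowest CIDB rat (12.86) lay below the highest DMN rat (12.89).

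The 3 DHEA rats had 12.15, 12.31 and 12.15, against 12.49, 12.46 and 12.46 in MC set 1. All DHEA rats lay below all rats of their set. The mean was 12.20 ± 0.10 (SD, n = 3) against 12.47 ± 0.02. DHEA, a steroid precursor that causes peroxisome proliferation in rat liver, thus had a log2 fold change of -0.27 (adjusted p = 0.019 in limma, SE 0.08). In DHEA 8.64% of the miRNAs were called lower, and 16% had all treated rats below all controls. The control rat at 12.19 in MC set 2 lies inside the range of the DHEA rats. Against the 2 rats of MC set 1 scanned on the same day as the DHEA rats, the difference was -0.26. The DHEA arrays shared no slide with MC set 1, and the call was lost with slide as a random block (-0.27, adjusted p = 0.0561 in limma) and as a fixed block (-0.50, adjusted p = 0.245). The call was lost without DHEA rat 1 or 3 (-0.24 each) and without rat 4 of MC set 1 (-0.26), at adjusted p of 0.0612 to 0.0913 in limma.

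The 3 DES rats had 12.34, 12.17 and 12.22, against 12.38, 12.49 and 12.53 in MC set 5. All DES rats lay below all rats of their set. DES, a synthetic estrogen, had a mean of 12.24 ± 0.09 (SD, n = 3) against 12.47 ± 0.08, which gave -0.22 on the log2 scale (adjusted p = 0.0359 in limma, SE 0.08). In DES 16% of the miRNAs were called lower and 27.2% had all treated rats below all controls. No rat of MC set 5 was scanned on the same day as the DES rats. Against the 3 MC rats scanned on that day, those of set 6, with 12.26 to 12.45, the DES rats overlapped and lay 0.13 lower on average. With scan day as a term in the model the log2 fold change of DES was -0.03 (adjusted p = 0.921 in limma). The DES arrays shared no slide with MC set 5 either, and with slide as a random block DES had -0.21 (adjusted p = 0.114 in limma) and as a fixed block 0.08, neither of them called. The call was lost without DES rat 2 or 3 or rat 8 or 9 of MC set 5, at -0.21 to -0.18 (adjusted p of 0.0939 to 0.144 in limma). With the 15 arrays in doubt assigned to the groups whose columns follow them, DHEA had -0.22 (adjusted p = 0.0359 in limma) and DES -0.21 (adjusted p = 0.0847). DHEA then holds the DES arrays and MC set 1 those of MC set 5, so this is the DES comparison above under another label. DES then holds the DHEA arrays, set against those of MC set 2. As these low groups only traded labels, their shared direction is not a separate test.

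**Figure D2:**
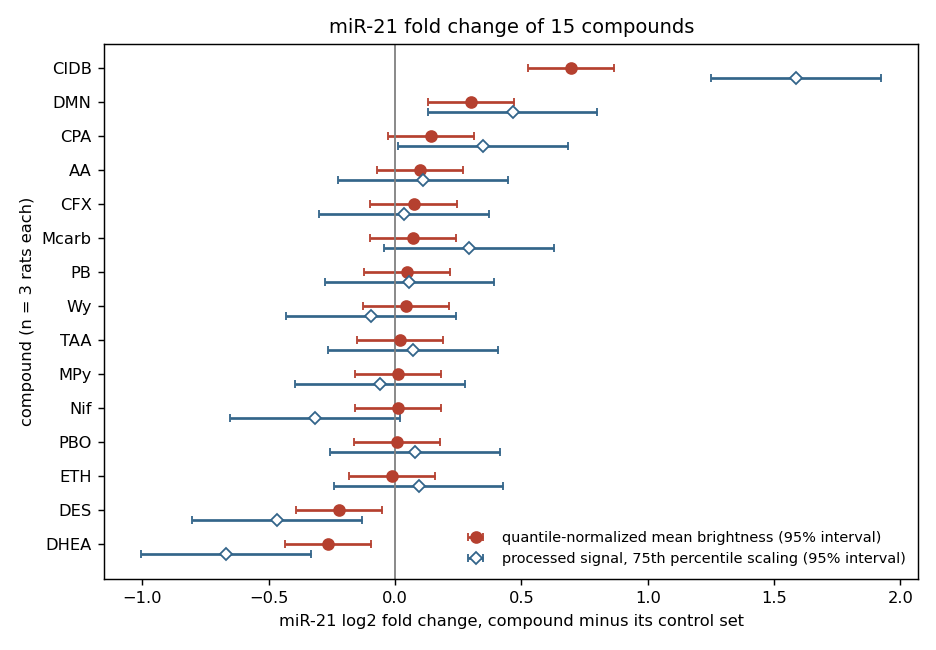
log2 fold change of miR-21 against the control set (horizontal axis) for 15 compounds, with 95% intervals from limma and 3 rats per group. Filled circles are quantile-normalized brightness, with CIDB at 0.70, and open diamonds the scanner software's processed signal, with CIDB at 1.59.

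Of the 11 compounds without a call, the highest value was that of CPA, an antiandrogenic steroid, whose rats had 12.47, 12.55 and 12.40. CO set 4 had 12.34, 12.40 and 12.24, so the groups overlapped. CPA gave 0.14 (95% interval -0.03 to 0.31, adjusted p = 0.37 in limma), and in CPA 3.7% of the miRNAs were called higher and 1.85% lower. The AA rats had 12.42, 12.62 and 12.67 and a log2 fold change of 0.10. The Mcarb rats had 12.52, 12.48 and 12.62, with 0.07. In both compounds 2 of 3 rats lay above MC set 1. In AA 8.02% of the miRNAs were called higher and 5.56% lower, and in Mcarb 1.23% and 0.617%.

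The Wy rats, given a PPAR-alpha agonist, had 12.47, 12.50 and 12.56. The TAA rats, given a classical liver toxicant, had 12.44, 12.53 and 12.50, and the MPy rats, given an antihistamine toxic to periportal hepatocytes, had 12.54, 12.36 and 12.55. Their log2 fold changes were 0.04, 0.02 and 0.01, in groups whose ranges overlapped that of MC set 1. Other miRNAs were called in these compounds, 11.7% higher and 14.2% lower in Wy, 9.88% and 11.7% in TAA, and 8.02% and 10.5% in MPy. The Wy and TAA rats were scanned on a day on which no rat of MC set 1 was. On average they lay 0.14 and 0.11 above the 3 MC rats scanned on that day, those of set 6. With scan day as a term in the model Wy had 0.23 and TAA 0.21 (adjusted p = 0.136 and 0.192 in limma), neither called. The ETH rats had 12.45, 12.51 and 12.39, with -0.01. The PBO rats had 12.40, 12.49 and 12.53, with 0.01. The PB rats had 12.31, 12.44 and 12.52, with 0.05. PB and PBO are enzyme inducers that act through CAR, and both groups overlapped their controls. Called higher and lower were 6.17% and 9.88% of the miRNAs in ETH, 4.94% and 3.7% in PBO and 2.47% and 0.617% in PB. The non-carcinogens CFX and Nif, an antibiotic and a calcium channel blocker, had 12.53, 12.45 and 12.47, and 12.44, 12.39 and 12.45. Their log2 fold changes were 0.07 and 0.01, all 6 rats lay inside the range of MC set 2, and 0% of the miRNAs were called in either.

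With quantile-normalized brightness the 95% intervals of these 11 compounds ran from -0.18 to 0.31, with 3 rats per group. Over their 33 rats the level ranged from 12.31 to 12.67 with a median of 12.48. The intervals were wider in the scanner software's processed signal, described below, and ran from -0.65 (Nif) to 0.68 (CPA). There CPA had 0.35 (95% interval 0.01 to 0.68, adjusted p = 0.178 in limma) and was not called.

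In the order of group means, CIDB (13.10) was followed by DMN (12.71), AA (12.57), Mcarb (12.54), Wy (12.51), TAA (12.49), CFX (12.49), MPy (12.48), PBO (12.47) and CPA (12.47). Below them came MC set 1 (12.47), MC set 5 (12.47), ETH (12.45), PB (12.42), Nif (12.42), MC set 2 (12.41), CO set 3 (12.41), MC set 6 (12.38), CO set 4 (12.33), DES (12.24) and DHEA (12.20). Every pair of neighbours in this order had rats that overlapped. The gap between CIDB and DMN, 0.40, was the widest, and that between DMN and AA was 0.14.

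Among the 7 pairs of compounds that share a control set and a treatment time, 4 passed the test after adjustment over the pairs. Beside CIDB and DMN, AA exceeded DHEA by 0.37 (95% interval 0.20 to 0.54, adjusted p = 0.000311 in limma) and Mcarb exceeded DHEA by 0.34 (adjusted p = 0.000635). DES lay below PBO by 0.23 (adjusted p = 0.016), with arrays scanned on different days. The labels of the DHEA and DES arrays are in doubt. The DHEA arrays shared no slide with those of AA or Mcarb, so slide and compound cannot be told apart in these pairs. AA and Mcarb differed by 0.03 (95% interval -0.14 to 0.20), MPy and TAA by -0.01 (-0.18 to 0.16) and CFX and Nif by 0.06 (-0.11 to 0.23), and none of these passed the test.

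The classes were compared with the compound as the unit. The log2 fold change of miR-21 averaged -0.03 ± 0.14 (SD) over the 8 NGCs, 0.50 over the 2 GCs and 0.04 over the 2 NCs. The GCs exceeded the NGCs by 0.53, and the difference of NGCs minus GCs, -0.53, had a two-sided exact permutation p = 0.0222, the smallest that 45 assignments allow. After adjustment over the 3 contrasts this exact permutation p was 0.0666. Carcinogens and non-carcinogens differed by 0.03 (exact permutation p = 0.833), and NGCs and NCs by -0.07 (exact permutation p = 0.578). Both GCs share CO set 3, both were given in corn oil, and both NCs share MC set 2, so class, vehicle and control set cannot be told apart for the GCs.

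The 2 probes of miR-21 gave the same direction for the genotoxic carcinogens and different ones for DES. Probe 1 had a log2 fold change of 0.76 in CIDB and probe 2 of 0.63 (adjusted p = 8.09e-10 and 7.61e-05 in limma). In DMN the values were 0.21 (adjusted p = 0.0697 in limma) and 0.39 (0.0142). In DHEA probe 1 had 0.01 and probe 2 had -0.54 (adjusted p = 0.966 and 0.000761 in limma). These values are from quantile-normalized brightness, and both DHEA probes were lower in the processed signal given below. In DES probe 1 was called higher, at 0.22, and probe 2 lower, at -0.66 (adjusted p = 0.0394 and 4.85e-05 in limma). The level of probe 1 exceeded that of probe 2 by 1.98 to 2.01 in the 3 DES rats and by 0.80 to 1.81 in the other 60 rats. Over the control rats probe 1 had an SD of 0.09 and probe 2 of 0.19.

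**Figure D3:**
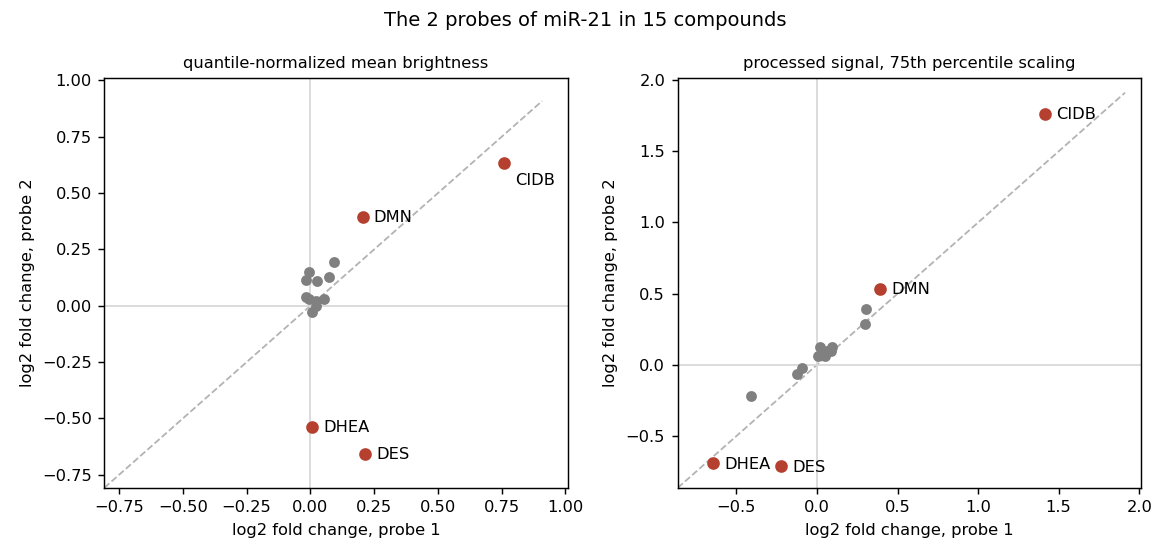
log2 fold change of miR-21 by probe 1 (horizontal axis) and probe 2 (vertical axis) for 15 compounds, with quantile-normalized brightness on the left and the processed signal on the right. The dashed line marks equal values. DES has 0.22 and -0.66 on the left, and -0.22 and -0.71 on the right.

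The size of the changes depended on the values used. In the scanner software's processed signal, from which the background is subtracted, scaled on each array by the 75th percentile over miRNAs that all arrays detected, the CIDB rats had log2 levels of 4.54, 5.42 and 4.85 and CO set 3 had 3.28, 3.30 and 3.46. CIDB then stood at 1.59 (SE 0.17, 3.01-fold, adjusted p = 2.5e-10 in limma). This scaling moved the median of all tested miRNAs in CIDB by 0.37, so miR-21 lay 1.22 above that median, and 30.9% of the miRNAs were called higher and 3.09% lower. The DMN rats had 3.70, 3.95 and 3.79, above all rats of CO set 3, with 0.47 (adjusted p = 0.041 in limma), which is 0.35 above the median of all tested miRNAs. There 18.5% of the miRNAs were called higher. In size miR-21 ranked 12 of 162 miRNAs in CIDB and 59 in DMN in these values. With quantile-normalized brightness the ranks were 2 and 11.

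In the same values the DHEA rats had 2.45, 2.87 and 2.77 against 3.37, 3.61 and 3.13 in MC set 1. This gave -0.67 (1.59-fold lower, adjusted p = 0.0019 in limma), 0.79 below the median of all tested miRNAs, and 5.56% of them were called lower. The DES rats had 3.103, 2.87 and 3.03 against 3.33, 3.64 and 3.43 in MC set 5. This gave -0.47 (adjusted p = 0.0242 in limma), 0.27 below the median, and 28.4% of the miRNAs were called lower. All treated rats of these 4 compounds lay beyond all rats of their set here as well. With quantile-normalized brightness 14.2% to 27.2% of all tested miRNAs did so in the same direction. That share was not counted in the processed signal. Both probes were lower in DES in these values, at -0.22 for probe 1 (adjusted p = 0.289 in limma) and -0.71 for probe 2 (adjusted p = 0.00194). In DHEA both probes were lower and called, at -0.645 for probe 1 (adjusted p = 0.0017 in limma) and -0.691 for probe 2 (adjusted p = 0.0037).

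The value table was normalized separately from the scanner files and holds 135 miRNAs. There the CIDB rats had 13.37, 13.93 and 13.69 against 12.45, 12.40 and 12.52 in CO set 3, a log2 fold change of 1.21 (adjusted p = 6.39e-07 in limma). The DMN rats had 12.42, 13.07 and 12.64 and were not called, at 0.25 (adjusted p = 0.316 in limma), and 1 of them lay below 2 of the 3 control rats. DES had -0.71 and was called lower (adjusted p = 0.00185 in limma), and DHEA had -0.15 and was not (adjusted p = 0.518), in columns that follow each other's arrays. Over the 13 settings that use both probes and all rats, miR-21 was called higher in CIDB in 13, at 0.63 to 1.59. In DMN it was called higher in 10 of 13, at 0.12 to 0.60 over all 13. DHEA was called lower in 10, at -0.80 to -0.15, and DES in 7, at -0.71 to 0.08. The 10 of DHEA include the setting with arrays assigned as in the value table, which is the DES comparison under another label. The 7 of DES include the value table itself, whose DES and MC set 5 columns follow the arrays of DHEA and MC set 2. The -0.71 of DES and the -0.15 of DHEA are those of the value table.

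The passenger strand miR-21* is normally degraded while the guide strand is kept in Argonaute. It was detected on 2 of 63 arrays, both of CIDB rats, and was well above background on 1 of them. Its levels were 7.43, 7.52 and 7.49 in the CIDB rats and 7.40, 7.40 and 7.41 in CO set 3, where it was not well above background on any array. The CIDB mean of 7.48 lay below the level of the dimmest miRNAs well above background in the controls, 7.58, so no fold is given. In DMN it was detected in no rat, with a mean of 7.41.

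miR-34a is a direct target of p53 that restrains the cell cycle. Among the tested injury and growth miRNAs, miR-21 included, it alone changed by more than 1 log2 unit with quantile-normalized brightness. In several compounds its call differed from that of miR-21. It was called higher in CIDB (log2 fold change 3.44) and DMN (1.96), the compounds in which miR-21 was higher. It was also called higher in TAA (1.96), ETH (1.89) and MPy (1.12), where miR-21 had 0.02, -0.01 and 0.01 and was not called. With scan day as a block miR-21 had 0.21 in TAA, also without a call. In DHEA miR-34a was called higher (0.40, adjusted p = 0.0123 in limma) while miR-21 was called lower. The TAA rats had miR-34a levels of 9.48 to 10.00, which overlapped those of the DMN rats at 9.65 to 9.96, with miR-21 levels of 12.44 to 12.53 against 12.50 to 12.89.

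miR-122, the main hepatocyte miRNA, ran the other way in the genotoxic carcinogens. Its levels were 14.50, 14.25 and 14.21 in the CIDB rats and 14.68, 14.67 and 14.59 in CO set 3. It was called lower in CIDB (log2 fold change -0.33, adjusted p = 3.04e-11 in limma) and in DMN (-0.09, adjusted p = 0.0329). In the other 13 compounds it lay between -0.05 and 0.01 and was not called. Quantile normalization holds levels near the top of the scale close to fixed values, and the SD of miR-122 was 0.001 in DHEA and in Nif. The lack of a call in these compounds therefore says little about whether miR-122 changed.

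**Figure D4:**
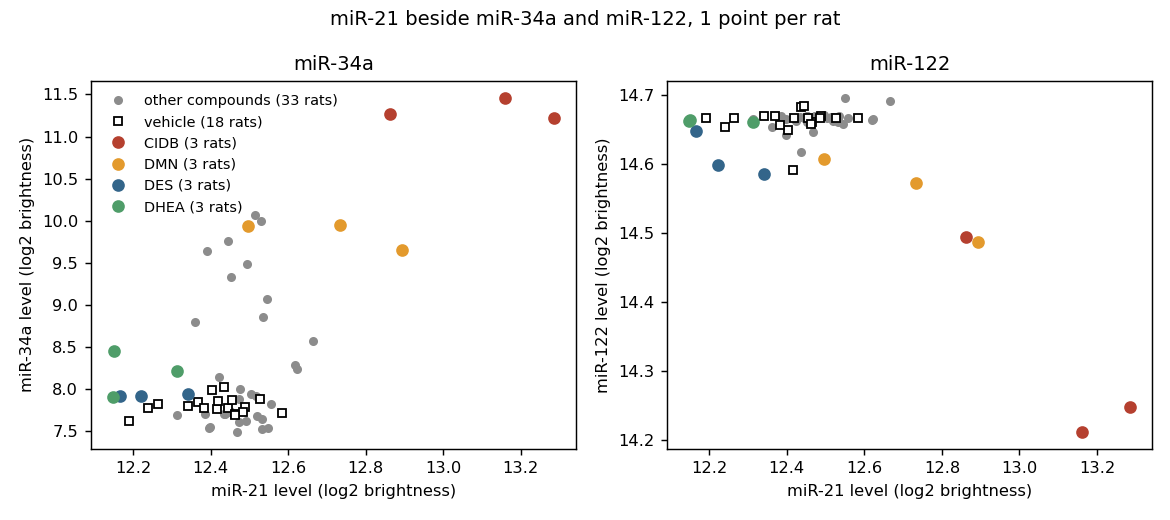
Level of miR-34a (left) and miR-122 (right, both log2 brightness) against that of miR-21 (horizontal axes), with 1 point per rat. The CIDB rats, at 12.86 to 13.29 for miR-21, hold the highest miR-34a levels, at 11.23 to 11.46, and DMN, DES and DHEA rats are marked by colour.

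Likeness to miR-21 was described by Pearson's r of the group mean levels over 21 groups, which share arrays and normalization, among the 70 other miRNAs detected on all arrays. The highest were miR-25 (r = 0.51), miR-322 (0.50) and miR-27a (0.47), and the lowest were miR-122 (-0.81) and miR-193 (-0.55). Without CIDB and DMN, over 19 groups, r was -0.14 for miR-25, -0.38 for miR-322, 0.57 for miR-122 and -0.48 for miR-193, so the sign for miR-25, miR-322 and miR-122 rests on these groups. For miR-27a it was 0.45 without them. Over the 8 groups scanned wholly on the first day and the 7 wholly on the second, r was 0.77 and 0.56 for miR-27a, -0.07 and -0.93 for miR-193, 0.31 and -0.18 for miR-25, -0.19 and 0.06 for miR-322, and -0.43 and 0.07 for miR-122. miR-27a was called higher in DMN (log2 fold change 0.20, adjusted p = 0.0456 in limma) and lower in DES (-0.20, adjusted p = 0.0322) and Wy (-0.28, adjusted p = 0.00492). miR-34a, detected on 59 arrays, had r = 0.72 over 21 groups and 0.15 over 19.

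The injury and growth list held 14 other miRNAs, of which 13 were on the array and 11 were detected and tested. In CIDB 3 were called higher and 0 lower, where 13% of all tested miRNAs were called higher, with a median log2 fold change of 0.03 beside 0.00 over all tested miRNAs. They were miR-34a, miR-25 (0.17) and miR-93 (0.05). In DMN 6 were called higher and 0 lower, where 13.6% of all tested miRNAs were called higher, with a median of 0.09. Beside miR-34a they were the NF-kB induced miR-146a (0.49) and miR-146b (0.13), and the cluster members miR-106b (0.13), miR-25 (0.10) and miR-93 (0.07). miR-146a was at -0.13 in CIDB and was not called there (adjusted p = 0.221 in limma). miR-146b was well above background in no rat of CIDB, DMN or CO set 3, and miR-93 in none of CO set 3.

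In DES, where the call of miR-21 was lower but depended on the probe, 5 of the 11 members were called higher and 0 lower. Among them were miR-20a (0.32) and miR-106b (0.15), members of the growth-promoting miR-17 family. In DES 21% of all tested miRNAs were called higher. A further one of the 5, miR-221 (0.07), was well above background in no rat of DES or MC set 5. In DHEA 4 of the 11 were called higher, among them miR-20a (0.29), where 9.88% of all miRNAs were. miR-221, well above background in no DHEA rat, was called lower in DHEA (-0.08), as were 8.64% of all miRNAs. The members called in the most compounds were miR-93, higher in 9 compounds at 0.05 to 0.09, and miR-34a, higher in 7 at 0.40 to 3.44. Each was called lower in 0 compounds. With miR-21 not called, 3 members were called higher in TAA, 4 in MPy and 4 in Wy, where 9.88%, 8.02% and 11.7% of all tested miRNAs were. One of those in TAA, miR-146b, was well above background in no TAA rat.

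Whole liver was measured, so fewer cells of a type and less RNA per cell cannot be told apart. The sums of brightness given from here on add normalized levels, unlike the unnormalized brightness of miR-21 above. No background was subtracted, so members that are not detected add to them too: undetected miR-21* had a log2 level of 7.40 in CO set 3. The hepatocyte miRNAs miR-122, miR-192 and miR-194 were well above background in every rat of the groups with a call and of their control sets. Most of their sum is miR-122, which normalization holds near a fixed level. Their summed brightness was 20607 to 24903 units in the CIDB rats against 26889 to 28756 in CO set 3, and 2 of the 3 were called lower there, where 7.41% of all miRNAs were. In the DMN rats it was 25158 to 27537 units and 1 of 3 was called lower, where 9.88% of all miRNAs were. In DHEA it was 27856 to 28126 against 28316 to 28696 units in MC set 1, with 1 of 3 called lower beside 8.64% of all miRNAs. In DES it was 27334 to 28472 against 28183 to 28752 units in MC set 5, with 1 of 3 called higher beside 21% of all miRNAs.

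Leukocyte miRNAs moved with miR-21 in DMN. Of the 5 on the list, 4 were called higher in DMN (miR-142-3p 0.76, miR-223 0.40, miR-142-5p 0.18 and miR-342-3p 0.09), and their summed brightness was 1329 to 1576 units against 1090 to 1152 in CO set 3. Of all tested miRNAs 13.6% were called higher in DMN. In CIDB, where miR-21 was highest, the sum was 1052 to 1075 units and 0 were called higher. There miR-223 was called lower (-0.15), as were 7.41% of all tested miRNAs. In DES the sum was 1020 to 1079 against 1200 to 1206 units in MC set 5. Called lower in DES were 2, miR-142-3p (-0.52) and miR-142-5p (-0.08), where 16% of all miRNAs were. In DHEA it was 1090 to 1233 against 1198 to 1241 units in MC set 1, and none passed the test. miR-342-3p was well above background in no rat of CIDB, and miR-142-5p and miR-342-3p in none of CO set 3. In DES miR-142-5p, miR-150 and miR-342-3p were well above background in no rat.

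Of the 7 miRNAs of stellate, smooth muscle and endothelial cells, 6 were tested. In CIDB 0 were called in either direction, with summed brightness of 1917 to 2061 against 1961 to 2080 units in CO set 3. In DMN 4 were called lower, miR-143 (-0.33), miR-199a-3p (-0.24), miR-126 (-0.18) and miR-199a-5p (-0.06), with 1751 to 1782 units, where 9.88% of all miRNAs were called lower. In DES 1 was called lower, miR-126* (-0.09, well above background in no DES rat), where 16% of all miRNAs were. The summed brightness there was 1844 to 1914 against 1825 to 1926 units in MC set 5. In DHEA 0 were called, with 1828 to 1916 against 1814 to 1891 units in MC set 1. The erythroid miRNAs miR-451 and miR-144 were called in none of the 4 compounds, at -0.67 and -0.33 in CIDB (adjusted p = 0.158 and 0.124 in limma). Their summed brightness was 627 to 984 units in CIDB and 751 to 1375 in DMN against 907 to 1500 in CO set 3, 900 to 969 in DHEA against 928 to 1224 in MC set 1, and 629 to 980 in DES against 901 to 1350 in MC set 5. The part of other cell types in the levels of miR-21 was not tested.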

How the data were processed

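Liver miRNA was measured on 63 one-colour Agilent rat miRNA arrays, 1 per rat. The authors deposited scanner files with spot intensities, which per the file headers are mean brightness without normalization together with a background-subtracted processed signal, and a table of normalized log2 values that the authors made, per the methods and processing notes, with RMA without background correction. Here control spots were removed together with outlier-flagged spots (2.87%), mean brightness was quantile normalized over 7000 spots, the spots of a probe were averaged, and probes were combined on the log2 scale by median polish. The 162 miRNAs detected on at least 1 array entered 1 linear model of the 21 groups (limma 3.58.1, R 4.3.3; 42 residual degrees of freedom), with Benjamini-Hochberg adjustment within a compound and a threshold of 0.05. Class labels were permuted exactly over compounds. Groups follow the sample labels. The fit was tested on simulated data. The number of arrays limits the precision.

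The miRNA and the lists were chosen with earlier results of these data known. The text names miR-21, miR-21*, the 3 most like and 2 least like miRNAs by r, members of the lists and those called in the most compounds. Alternatives were the authors' value table, the processed signal with 2 scalings, normexp with an offset of 50, other detection filters, each probe alone, slide or scan day as a block, pooled vehicle rats, fits of the compared groups alone, arrays assigned as in the value table, each rat left out, and the replicate number as a block. Each probe alone on the processed signal, and the groups whose arrays are not in doubt alone, were chosen after seeing the data. The replicate numbers of PB and CPA also occur in their control sets, but same-numbered rats did not deviate together (r from -0.26 to 0.05 for PB and from -0.23 to -0.16 for CPA). The mRNA and protein data were not used here.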

Additional observations from a re-analysis of the deposited data

How the results depend on the processing

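miR-21 in CIDB was higher and called under all alternatives run, the processed-signal and probe settings included. The 11 compounds without a call kept that status under all of them, while several changed sign. The cause of the changes below was not tested. Number of compounds called higher: 2, and 1 in the authors' value table, with only the compared groups, with the 75th percentile of all probes and with probe 1 on the processed signal. Called lower: 2, and 1 with all 350 miRNAs, arrays assigned as in the value table, the authors' value table, scan day as a block, the 75th percentile of all probes and probe 1 on the processed signal. It was 0 with probe 1 alone, with slide as a fixed or random block and among the groups whose arrays are not in doubt.

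All 350 miRNAs kept: DES -0.221 (adjusted p = 0.0577). All control rats of the vehicle: ETH 0.022, Nif -0.007 and PB -0.007. Arrays as in the value table: DES -0.209 (0.0847), ETH 0.04, Nif -0.045, and 0.003 for NGC vs. NC. Value table: DHEA -0.149 (0.518), DMN 0.253 (0.316), MPy -0.16, Nif -0.32, PBO -0.258, and 0.025 for NGC vs. NC. Only the compared groups: DMN 0.3 (0.14). Scan day as a block: DES -0.026 (0.921) and PB -0.013, with AA 0.226, TAA 0.213 and Wy 0.234 rising without a call. Slide as a fixed block: DES 0.082, DHEA -0.503 (0.245), ETH 0.148, Mcarb -0.013, MPy -0.101, PB -0.278 and PBO -0.032. Slide as a random block: DES -0.214 (0.114) and DHEA -0.274 (0.0561).

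Processed signal scaled over detected miRNAs: ETH 0.093, MPy -0.058, Nif -0.317, Wy -0.096, and 0.071 for NGC vs. NC. Processed signal scaled over all probes: AA -0.278, DES -0.479 (0.117), DMN 0.115 (0.781), Mcarb -0.077, MPy -0.579, PBO -0.042, TAA -0.505 and Wy -0.501. Probe 1 alone: CFX -0.005, DES 0.216 (0.0394, called higher), DHEA 0.007, DMN 0.206 (0.0697), ETH 0.005, MPy -0.005, Nif -0.017 and PB -0.017. Probe 2 alone: PBO -0.002. Probe 1 on the processed signal: DES -0.222 (0.289), DMN 0.394 (0.0695), ETH 0.087, MPy -0.092, Nif -0.412 and Wy -0.124. Probe 2 on the processed signal: ETH 0.1, MPy -0.024, Nif -0.221 and Wy -0.068.

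Leaving out 1 rat in turn, CIDB ran from 0.60 to 0.82, called in 6 of 6 fits. DMN ran from 0.21 to 0.41, called in 5, lost without its rat 2. DHEA ran from -0.32 to -0.24 and was called in 3 of 6, lost without its rats 1 or 3 or rat 4 of MC set 1. DES ran from -0.27 to -0.18 and was called in 2 of 6, lost without its rats 2 or 3 or rats 8 or 9 of MC set 5. The ranges were -0.038 to 0.159 for CFX, -0.053 to 0.02 for ETH, -0.02 to 0.072 for MPy, -0.1 to 0.096 for Nif, -0.008 to 0.103 for PB and -0.032 to 0.047 for PBO, never called. The replicate block gave 0.05 for PB and 0.14 for CPA, as without it, and changed no call. No other compound shares 2 numbers with its control set. The total gene signal could not give a value, as miR-21 had rank 2 of 350 on every array, to which quantile normalization gives 1 value.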
